A study of Mus musculus with 6 samples.

Results

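Transcripts of 10 genes that take up, store, export or sense iron were compared in mouse femur between control animals and animals after phlebotomy, the removal of blood. The genes were chosen by symbol, for their roles, and matched to the gene names in the deposited tables. They are Tfrc, Tfr2, Slc11a2 and Steap3 (uptake), Slc40a1 (export), Fth1, Ftl1 and Ncoa4 (storage) and Ireb2 and Aco1 (sensing). All 10 were found among the 55421 Ensembl genes of the count table, and 10 of 10 were among the 18838 genes that passed the filter on low counts. The 3 control and 3 phlebotomy libraries all came from C57BL/6 mice aged 12 weeks and labelled WT, and the femur fraction used was enriched for osteocytes, the cells buried in bone matrix. The labels give neither the volume of blood removed nor the time after it, and do not say whether a library is 1 animal.

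Most cells import iron bound to transferrin. The transferrin receptor Tfrc carries it into endosomes, where Steap3 reduces it and the transporter Slc11a2 (DMT1) moves it into the cytosol. Iron that is not used is kept inside ferritin, a shell of heavy (Fth1) and light (Ftl1) subunits, and Ncoa4 leads ferritin to lysosomes when iron is needed. Slc40a1, ferroportin, is the only known exporter, and the hormone hepcidin removes it from the cell surface. In bone marrow the largest consumer is the erythroblast, which makes hemoglobin, while macrophages return iron from old red cells.

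The messenger RNAs of several of these genes carry iron-responsive elements, short hairpins in their untranslated regions (UTRs). The iron regulatory proteins encoded by Aco1 (IRP1) and Ireb2 (IRP2) bind them when iron is scarce. Binding in a 5′ UTR blocks translation, and binding in the 3′ UTR of Tfrc protects the message from decay. The elements are shown because they divide the 10 genes by the kind of control that an RNA count can register. The search asked for a C, 5 bases, the loop CAGTGN and 5 bases that pair with the first 5 (G with T allowed), on the sense strand of GENCODE M21 coding transcripts. It found 4 sites in the 3′ UTR of Tfrc and 1 in the 5′ UTR each of Fth1, Ftl1 and Slc40a1, thus in 4 of the 10 genes. Such a match lay in the 5′ UTR of 0.123% and in the 3′ UTR of 0.566% of 21899 coding genes. With 1 unpaired base allowed in the second arm, a search added after these results were seen, Slc11a2 gave a match in the 3′ UTR of the transcript Slc11a2-205, and 1.90% of coding genes had a match in either UTR. The sites follow from 5′ to 3′ with the bulged C and the loop in capitals, on GRCm38.
Tfrc, exon 19 of 19, chr16:32631219-32631248, plus strand: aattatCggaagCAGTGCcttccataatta
Tfrc, exon 19 of 19, chr16:32631598-32631627, plus strand: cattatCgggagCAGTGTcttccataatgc
Tfrc, exon 19 of 19, chr16:32631663-32631692, plus strand: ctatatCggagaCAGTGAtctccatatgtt
Tfrc, exon 19 of 19, chr16:32631710-32631739, plus strand: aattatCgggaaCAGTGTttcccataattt
Fth1, exon 1 of 4, chr19:9982732-9982761, plus strand: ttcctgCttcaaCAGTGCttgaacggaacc
Ftl1, exon 1 of 4, chr7:45459778-45459807, minus strand: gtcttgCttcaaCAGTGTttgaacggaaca
Slc40a1, exon 1 of 8, chr1:45925464-45925493, minus strand: caacttCagctaCAGTGTtagctaagtttg
Slc11a2, exon 16 of 16, chr15:100395152-100395181, minus strand: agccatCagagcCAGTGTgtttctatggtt

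Libraries held 11219243 to 19015588 gene counts. Columns of the tables with the initial P were read as phlebotomy and, by elimination, those with N as control. Libraries are named by group and by the column's own number (1, 2 or 4). Phlebotomy 2 stood apart from the other phlebotomy libraries. On the first principal component (44.1% of variance) its score was -6.9. The other phlebotomy scores were 49.3 and 31.9, and the control scores ran from -42.6 to -12.9. It also held 4288 counts in rows that name transgene or vector sequences, which goes against its WT label. The other 5 libraries held 380 to 640 such counts, nearly all in 1 row, GNAS-R201C-EE. That row held 372 to 619 counts over all 6 libraries, with 560 in phlebotomy 2. The main counts are therefore also given without phlebotomy 2. That choice rests in part on the same expression values. Leaving out the phlebotomy library nearest the controls favours larger group differences, so counts without it are not independent support. The osteocyte marker Dmp1 reached 11440 CPM or more in every library. In such bulk samples fewer cells of a type and less RNA per cell cannot be told apart.

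Per length of transcript, the storage genes far exceeded all others in control femur. Fth1 stood at 5664 ± 331 CPM per kb and Ftl1 at 926 ± 74.1 (SD, n = 3; CPM are library-size-scaled counts after TMM, divided here by the length of a principal transcript). Fth1 and Ftl1 together took 0.531% to 0.645% of all gene counts, with the lowest and the highest share both in phlebotomy libraries. Tfrc followed at 58.5 ± 6.74, Slc40a1 at 47.1 ± 5.85, Ncoa4 at 35.2 ± 3.15 and Slc11a2 at 19.6 ± 1.43 CPM per kb. The sensors lay lower, Ireb2 at 10.2 ± 1.34 and Aco1 at 7.98 ± 1.44 CPM per kb. Tfr2 (1.68 ± 0.24) and Steap3 (0.586 ± 0.271) came last. Control ranges of neighbours in this order overlapped for Tfrc and Slc40a1 and for Ireb2 and Aco1, and were separate for every other pair of neighbours. Tfr2, a relative of Tfrc that senses loaded transferrin in liver and erythroid cells, and Steap3, a ferrireductase, had 45 to 118 and 16 to 65 counts per library, so that their values are the least precise.

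**Figure D1:**
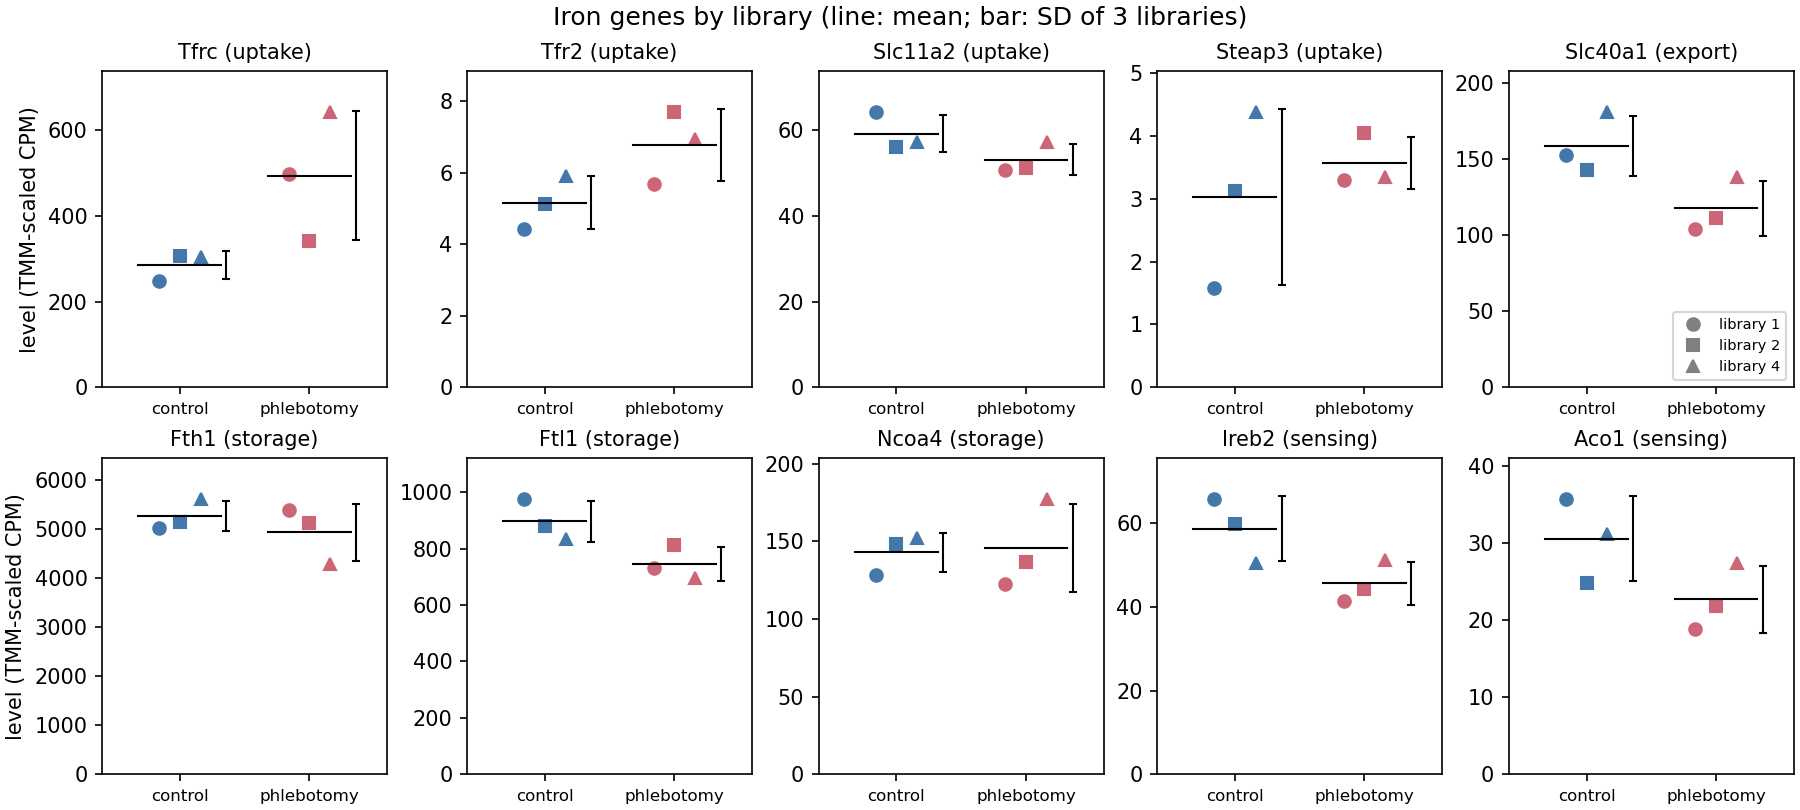
Level of each iron gene (y axis, TMM-scaled CPM, from 0) in the 3 control and 3 phlebotomy libraries. Points are libraries, the line is the mean and the bar the SD. Tfrc, Slc40a1 and Ftl1 are the panels in which the groups do not overlap.

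After phlebotomy none of the 10 iron genes passed edgeR's test over all genes at an adjusted p of 0.05, where 0.0159% of 18838 genes did (3 genes, all higher). The largest difference was in Tfrc, which was higher after phlebotomy, while Slc40a1, Aco1, Ireb2 and Ftl1 had fold changes below 0. Without adjustment, 2 of the 10 had p under 0.05 in edgeR. Tfrc was higher, as were 7.01% of all genes by this rule, and Slc40a1 lower, as were 9.42%, which makes 16.4% in both directions. The median log2 fold change of the 10 was -0.12 with 6 below 0, against a median of about 0.00 over all genes with 50.2% below 0. Without phlebotomy 2, 1 of 10 passed in edgeR, Tfrc, where 4.74% of 20300 genes passed (1.75% higher and 2.99% lower). In DESeq2 over all 6 libraries 1 of 10 passed, again Tfrc, where 2.69% of 13131 genes with an adjusted p passed (0.487% higher and 2.2% lower). At p under 0.05 without adjustment, DESeq2 had 1 of 10 higher (2.68% of 46504 genes) and 3 lower (4.32%). Those 46504 genes were not filtered on low counts, so these shares cannot be set beside those of edgeR. limma-voom called 0 of 10 and had 1 higher (6.31% of genes) and 1 lower (9.72%) at that unadjusted p. The labels do not say that libraries come from separate animals, so each p-value covers the variation among these libraries, which may be technical.

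**Figure D2:**
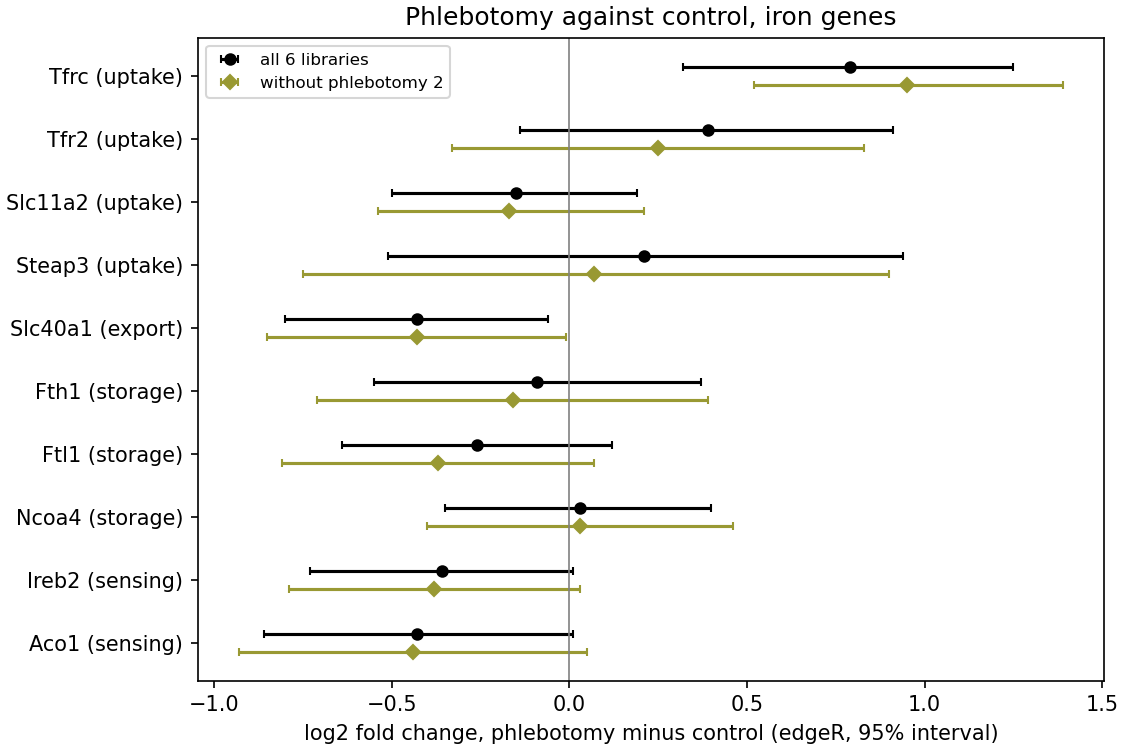
Log2 fold change (x axis, phlebotomy minus control) of the 10 genes with its 95% interval from edgeR, over all 6 libraries (circles) and without phlebotomy 2 (diamonds). Over all 6 libraries the interval leaves out 0 for Tfrc (0.32 to 1.25) and Slc40a1 (-0.80 to -0.06).

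Tfrc (ENSMUSG00000022797, protein-coding, chromosome 16, 32608920 to 32632794 on GRCm38, 19 exons in Tfrc-201) was at 248, 305 and 305 CPM in control 1, 2 and 4 and at 498, 341 and 641 CPM in phlebotomy 1, 2 and 4. Every phlebotomy library lay above every control, phlebotomy 2 by the least. Against the control mean these are 1.74, 1.19 and 2.24 times. The SD was 33.0 CPM among controls and 150 CPM among phlebotomy libraries, while the group means differed by less than 2 SD of the phlebotomy libraries. The log2 fold change was 0.79 ± 0.22 (SE; edgeR adjusted p 0.167). It was 0.95 ± 0.20 without phlebotomy 2 (edgeR adjusted p 0.031) and 0.55 without phlebotomy 4 (edgeR adjusted p 0.436), and DESeq2 gave 0.73 (adjusted p 0.0412). Over 17 alternatives it ran from 0.55 to 0.95 and passed in 3, with an adjusted p from 0.0287 to 0.613.

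Markers of dividing cells and of red cell precursors were read beside Tfrc, since erythroblasts and dividing cells carry much transferrin receptor. The 10 cell cycle genes summed to 702 to 1094 CPM in controls and 1097 to 1371 CPM after phlebotomy, and 10 of 10 had a fold change above 0 (median 0.52). In edgeR 0 of them passed, with 6 at an unadjusted p under 0.05, and DESeq2 called 1 higher, as edgeR did for 2 without phlebotomy 2. Their mean centred log2 level was 0.32, 0.06 and 0.38 in the phlebotomy libraries 1, 2 and 4, with phlebotomy 2 lowest of the group as for Tfrc. The 17 erythroid genes with a row summed to 13720 to 30230 CPM in controls and 20160 to 30330 CPM after phlebotomy, so the groups overlapped (median log2 fold change 0.11, 12 of 17 above 0). In edgeR 0 erythroid genes passed, with 4 higher at an unadjusted p under 0.05, while 1 passed in DESeq2 and 1 in edgeR without phlebotomy 2. Of all genes, 7.01% were higher at that unadjusted p in edgeR. DESeq2 called 0.487% of all genes higher, and edgeR without phlebotomy 2 called 1.75% higher. None of either list was at 0 in any library. Phlebotomy 4 had the highest Tfrc and the lowest erythroid sum of its group. The part of either cell population in the Tfrc difference was not tested.

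**Figure D3:**
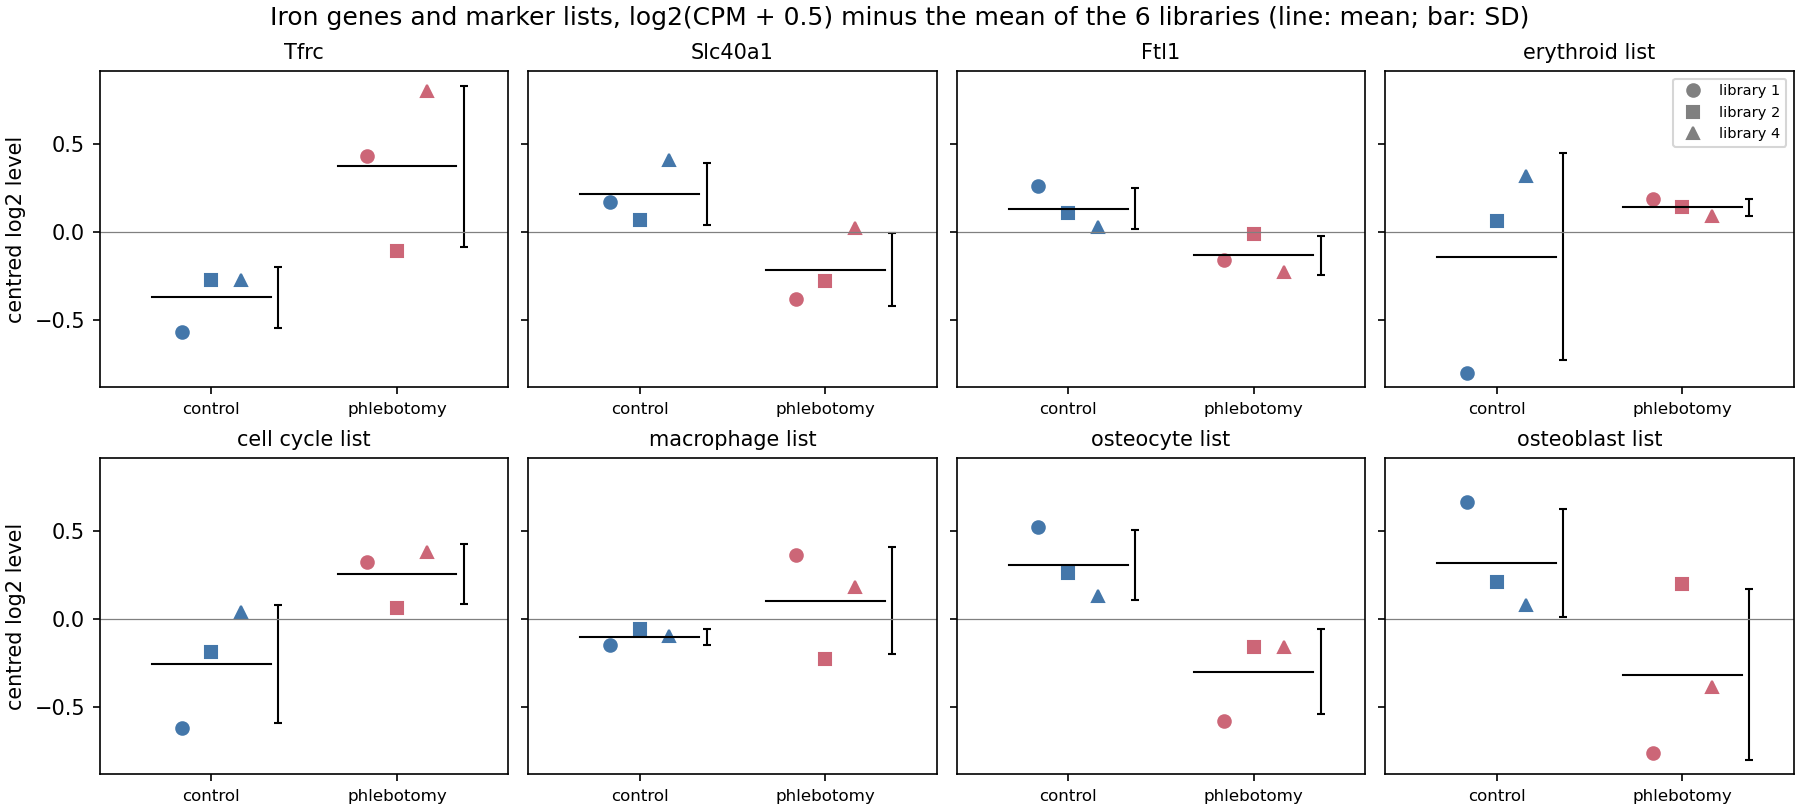
Centred log2 level (y axis, log2 of CPM + 0.5 minus the mean of the 6 libraries) of Tfrc, Slc40a1 and Ftl1 and the mean of 5 marker lists, by group. Points are libraries, the line is the mean and the bar the SD. The erythroid list overlaps between groups, with control 1 lowest at -0.80, while the osteocyte list lies from 0.13 to 0.52 in controls and from -0.58 to -0.16 after phlebotomy.

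The remaining uptake genes differed less. Tfr2 (chromosome 5, 137569840 to 137587481) was at 4.44, 5.14 and 5.91 CPM in controls and 5.69, 7.69 and 6.95 CPM after phlebotomy, and the groups overlapped. Its log2 fold change was 0.39, with a 95% interval of -0.14 to 0.91 (edgeR adjusted p 0.442). It was 0.63 with length and GC trends removed (interval 0.17 to 1.10, edgeR adjusted p 0.259) and 0.25 without phlebotomy 2. Slc11a2 (chromosome 15, 100387898 to 100425072) was at 64.2, 56.2 and 57.3 CPM in controls and 50.9, 51.3 and 57.4 CPM after phlebotomy. These groups met only at phlebotomy 4, and the interval of the log2 fold change, -0.50 to 0.19, lies inside a 2-fold difference in either direction. Steap3 (chromosome 1, 120190757 to 120272705) was at 1.58, 3.12 and 4.37 CPM in controls and 3.29, 4.04 and 3.35 CPM after phlebotomy. Control 1 and control 4 were the lowest and the highest of all 6, and its interval of -0.51 to 0.94 is the widest of the 10. Slc11a2 shares 402 exon bases with Gm5475 on the other strand, and the kit does not mark strand, so reads over them cannot be assigned.

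Slc40a1, the exporter (ENSMUSG00000025993, chromosome 1, 45908068 to 45926523), was at 153, 143 and 181 CPM in control 1, 2 and 4 and at 104, 111 and 138 CPM in phlebotomy 1, 2 and 4. All phlebotomy libraries lay below all controls, with phlebotomy 4 closest. The log2 fold change was -0.43 ± 0.17 (SE; edgeR adjusted p 0.252) and -0.43 without phlebotomy 2 (edgeR adjusted p 0.182). It did not pass in any of 17 alternatives, where it ran from -0.56 to -0.32. Removal of trends with transcript length and GC content left it at -0.43. Macrophages are a main site of ferroportin. The 13 macrophage genes summed to 995 to 1054 CPM in controls and to 1389, 899 and 1249 CPM in phlebotomy 1, 2 and 4, with a median log2 fold change of 0.17, 10 of 13 above 0 and 0 passing in edgeR (3 higher and 2 lower at an unadjusted p under 0.05, and 1 called higher by DESeq2). The osteocyte list had 11 of 12 below 0 (median -0.62) and the osteoblast list 10 of 10 (median -0.55). In edgeR 0 of either list passed, with 8 and 5 at an unadjusted p under 0.05, and DESeq2 called 4 and 1 lower. Without phlebotomy 2, 1 of the macrophage genes passed higher, and 3 osteocyte and 7 osteoblast genes passed lower. Of all genes, that fit called 1.75% higher and 2.99% lower, and DESeq2 called 0.487% higher and 2.2% lower. At an unadjusted p under 0.05 in edgeR over all libraries, 7.01% of all genes were higher and 9.42% lower. What these populations contribute to the Slc40a1 difference was not tested.

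Of the storage genes, only the light ferritin chain had groups that did not overlap. Ftl1 (ENSMUSG00000050708, chromosome 7, 45457944 to 45459884) was at 975, 880 and 834 CPM in controls and 731, 813 and 696 CPM after phlebotomy. The gap between control 4 and phlebotomy 2 was small, and the log2 fold change was -0.26 ± 0.18 (SE; edgeR adjusted p 0.472). Fth1 (ENSMUSG00000024661, chromosome 19, 9980598 to 9985098) was at 5026, 5149 and 5610 CPM in controls and 5399, 5133 and 4288 CPM after phlebotomy. Only phlebotomy 4 lay outside the control range, below it. The log2 fold change of Fth1 was -0.09 with a 95% interval of -0.55 to 0.37. Ncoa4, the ferritin receptor of lysosomal turnover (chromosome 14, 32159865 to 32179855), was at 128, 148 and 152 CPM in controls and 123, 137 and 177 CPM after phlebotomy. Phlebotomy libraries held both its lowest and its highest value, and its log2 fold change of 0.03 (interval -0.35 to 0.40) turned negative under 7 of 17 alternatives, down to -0.14.

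Ferritin genes have near-identical copies elsewhere in the genome, and counts can be split among them. The 3 named copies of Ftl1 (Ftl1-ps1, Ftl1-ps2 and Ftl2-ps) summed to 51.9% to 56.7% of the Ftl1 level in the 6 libraries. Those of Fth1 (Fth1-ps, Fth-ps2 and Fth-ps3) summed to 4.18% to 4.65% of Fth1. These shares were close in all libraries of both groups. With its copies added, Ftl1 was at 1509, 1337 and 1289 CPM in controls and 1145, 1266 and 1059 CPM after phlebotomy, still without overlap, and the log2 ratio of means was -0.25 in place of -0.26. Ftl1-ps1, which the deposited table lists as protein-coding, differed by -0.23 on the log2 scale (adjusted p 0.5 in edgeR). Ftl1 levels are therefore uncertain by the part of its reads given to copies, while the difference between groups hardly moved. Ftl1 also shares 355 exon bases with Gm10252 on the other strand and 109 with Gm22133, a miRNA gene on its own strand.

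Transcripts of both iron regulatory proteins were lower on average after phlebotomy, without passing the test. Ireb2 (chromosome 9, 54863789 to 54912530) was at 65.8, 59.9 and 50.5 CPM in controls and 41.3, 44.2 and 51.3 CPM after phlebotomy. Aco1 (chromosome 4, 40143081 to 40198338) was at 35.7, 24.8 and 31.3 CPM in controls and 18.8, 21.9 and 27.4 CPM after phlebotomy. In each gene phlebotomy 4 alone reached into the control range. Their log2 fold changes were -0.36 ± 0.17 for Ireb2 and -0.43 ± 0.20 for Aco1 (SE), with adjusted p of 0.314 and 0.316 in edgeR. With length and GC trends removed that of Aco1 was -0.26.

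Across the 10 genes the groups did not overlap for 3, against 21.3% of all genes. Tfrc was higher, as were 10.1% of genes, and Slc40a1 and Ftl1 were lower, as were 11.2%. The share among the iron genes is thus near the background. In the authors' deposited scaled values, whose TMM factors differ from those computed here, the count was 5, against 21.7% of genes (7.22% higher and 14.5% lower), and Slc11a2 and Ireb2 were the additions. Slc11a2 reached at most 53.5 CPM after phlebotomy there and at least 57.6 CPM in controls. The count of 5 thus rested on the scaling for Slc11a2 and Ireb2. Leaving out phlebotomy 2 could only add genes to the count of 3 in the scaling used here, and it added none.

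Ratios within a library do not depend on library scaling, but show only unequal change. Tfrc stood to Slc40a1 as 1.12, 1.47 and 1.16 in control 1, 2 and 4 and as 3.30, 2.10 and 3.19 in phlebotomy 1, 2 and 4 (counts per kb). The balance of receptor to exporter transcripts was thus higher in all phlebotomy libraries, by 1.18 ± 0.24 on the log2 scale (SE), or 2.26-fold. The exact two-sided permutation test gave p = 0.1, the smallest that 3 against 3 libraries allow (0.2 after Benjamini-Hochberg adjustment over 4 ratios). That outcome was fixed beforehand, because Tfrc lay above and Slc40a1 below all controls in every phlebotomy library. The ratio therefore restates the 2 single-gene differences and adds no support to them. The Tfrc to Fth1 ratio differed by 0.84 ± 0.35 (exact permutation p = 0.1, adjusted 0.2), also without overlap, and by 0.53 without phlebotomy 4. The ferritin heavy to light ratio was 5.37, 6.10 and 7.0 in controls and 7.70, 6.58 and 6.42 after phlebotomy, which overlapped (log2 difference 0.17 ± 0.14, exact permutation p = 0.4). The Aco1 to Ireb2 ratio overlapped as well (log2 difference -0.07 ± 0.18, exact permutation p = 0.8).

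**Figure D4:**
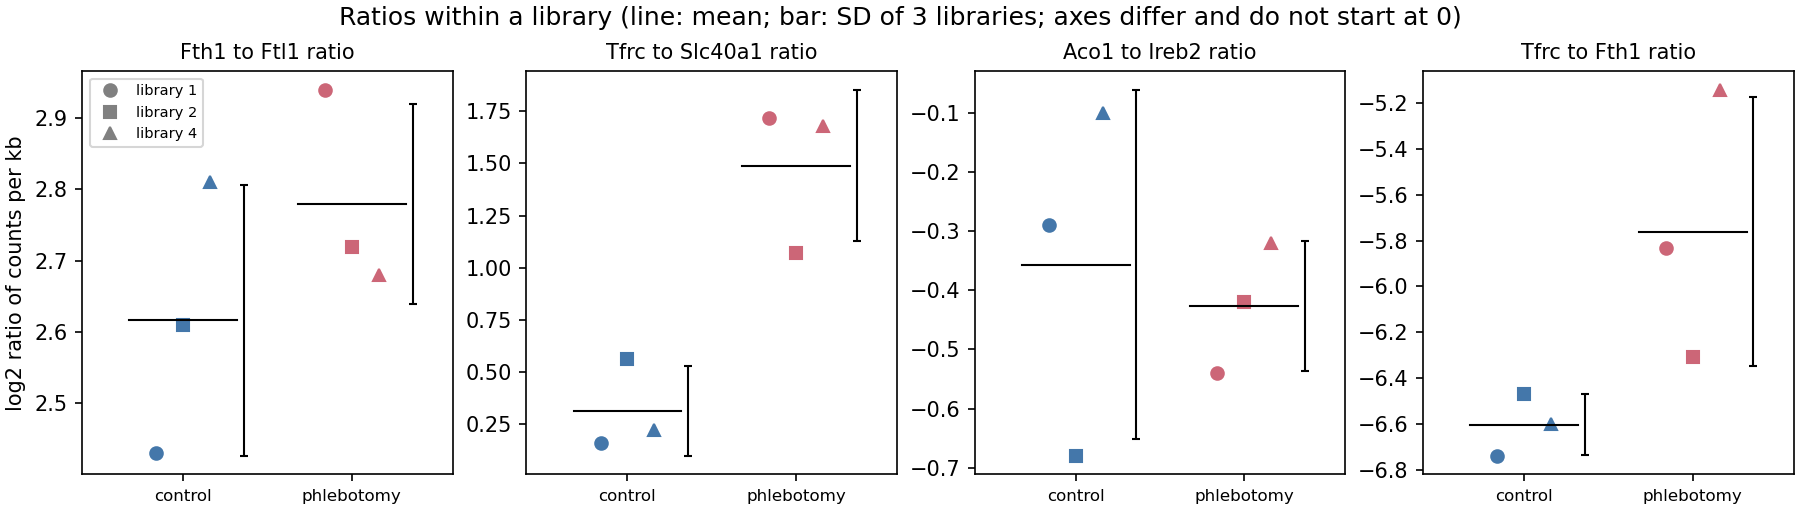
Log2 ratio of counts per kb (y axes, which differ and do not start at 0) for 4 pairs of iron genes in control and phlebotomy libraries. Points are libraries, the line is the mean and the bar the SD. Tfrc to Slc40a1 lies from 0.16 to 0.56 in controls and from 1.07 to 1.72 after phlebotomy.

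Other genes of iron handling were read from 6 lists with 65 genes, of which 57 were tested. Of these, 1 passed over all genes in edgeR, Erfe, the hormone that lowers hepcidin. Erfe held 6, 1 and 2 counts in controls and 70, 72 and 74 after phlebotomy (fitted log2 fold change 4.33, which with so few control counts depends on the prior count; edgeR adjusted p 0.00641). Erfe passed in 14 of 17 alternatives, but not in limma-voom or in edgeR without phlebotomy 1 (adjusted p 0.199), and DESeq2 gave it no adjusted p. Before adjustment 5 genes were higher and 9 lower with p under 0.05, which is 24.6% of the tested genes, where the share of all genes was 16.4%. Without phlebotomy 2 there were 6 higher and 14 lower, 34.5% of the tested genes against 26.5% of all. Groups did not overlap for 5 higher and 12 lower genes, where the shares of all genes were 10.1% and 11.2%. Without phlebotomy 2, 2 passed higher and 4 lower of 58 tested, Erfe and Blvra higher and Bmp2, Flvcr2, Lrp1 and Rhbdf2 lower, in a fit that called 1.75% of all genes higher and 2.99% lower. DESeq2 called Bmp2 and Lrp1 lower, as it did 2.2% of all genes with an adjusted p.

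In heme recovery 6 of 12 genes had fold changes above 0. Blvra and Blvrb, the biliverdin reductases that act after heme oxygenase, were at 15.3 ± 3.30 and 93.2 ± 32.3 CPM in control and 26.5 ± 5.98 and 148 ± 20.8 CPM after phlebotomy (SD, n = 3). Their log2 fold changes were 0.79 and 0.66, with adjusted p of 0.167 and 0.212 in edgeR. Lrp1, an endocytic receptor that takes up hemopexin-bound heme, was at 118 ± 19.4 and 73.3 ± 11.1 CPM in control and phlebotomy, a log2 difference of -0.69 (adjusted p 0.16 in edgeR). Groups did not overlap for any of these 3. In this list 2 of 12 were higher and 4 lower at an unadjusted p under 0.05 (7.01% and 9.42% of all genes), with a median of 0.01. Without phlebotomy 2 there were 2 and 5 (12.1% and 14.5% of all genes).

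In the list of other importers and reductases, whose genes are not all importers, 9 of 10 had fold changes below 0 (median -0.21) and 0 passed. Slc39a14 (ZIP14), a transporter of iron not bound to transferrin, was at 859, 694 and 507 CPM in controls and 234, 495 and 501 CPM after phlebotomy. The groups were apart by little between control 4 and phlebotomy 4, with a log2 difference of -0.74 (adjusted p 0.229 in edgeR). Rhbdf2 was at 74.3 ± 3.29 and 48.8 ± 10.6 CPM (log2 fold change -0.61) and Steap1 at 2.90 ± 0.398 and 2.03 ± 0.835 CPM (log2 fold change -0.52). The mitochondrial and iron-sulfur cluster list ran the other way, with 10 of 12 above 0 (median 0.16) and 0 passing. Nfs1, the cysteine desulfurase, was at 11.3, 11.2 and 14.9 CPM in controls and 16.6, 14.3 and 18.3 CPM after phlebotomy. The groups overlapped at phlebotomy 2 and control 4, and the log2 difference was 0.39 (adjusted p 0.354 in edgeR).

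Of the chaperones and regulators of the sensors, 7 of 10 had fold changes below 0 (median -0.12) and 0 passed. Bola2, a partner of glutaredoxin in cluster transfer, was at 22.8, 21.8 and 25.6 CPM in controls and 48.8, 29.97 and 29.1 CPM after phlebotomy. Phlebotomy 1 was far above the rest, and the log2 fold change was 0.62 (adjusted p 0.213 in edgeR). Glrx3 and Pcbp1, which hands iron to ferritin, had log2 fold changes of 0.36 and -0.29, and Pcbp1 -0.44 without phlebotomy 2. Plasma carriers and oxidases had 5 of 6 below 0 (median -0.19), 0 of them at an unadjusted p under 0.05. Transferrin itself (Trf) was at 384, 311 and 386 CPM in controls and 272, 379 and 289 CPM after phlebotomy (log2 fold change -0.20), Ltf, a neutrophil granule protein, had -0.39, and the lipocalin receptor Slc22a17 -0.58. Without phlebotomy 2 these were -0.40 for Trf, -0.78 for Ltf and -0.99 for Slc22a17 (adjusted p 0.204, 0.189 and 0.0526 in edgeR), and the groups of Trf and Slc22a17 no longer overlapped.

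In the hepcidin axis 5 of 7 tested genes were below 0 (median -0.38), beside Erfe. Bmp2, a ligand upstream of hepcidin, was at 860, 697 and 530 CPM in controls and 281, 444 and 381 CPM after phlebotomy. Its log2 difference was -0.92 (adjusted p 0.139 in edgeR), and it passed without phlebotomy 2. Epas1 (HIF-2 alpha), which drives iron transport genes under low oxygen, was at 81.5, 68.9 and 59.5 CPM in controls and 53.8, 46.5 and 46.4 CPM after phlebotomy. These groups did not overlap, and the log2 difference was -0.52 (adjusted p 0.202 in edgeR). The hepcidin gene Hamp held 3, 4 and 6 counts in controls and 10, 6 and 2 after phlebotomy, too few to test, as did Hamp2, Hjv and Tmprss6 of this axis.

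The fold changes of the 10 iron genes under other settings show which signs moved with the processing. All settings reuse the same libraries, so a sign that stayed is no further support. Tfrc and Tfr2 stayed above 0 and Slc11a2, Slc40a1, Ftl1, Ireb2 and Aco1 below 0 under all 17 alternatives run. Among these genes only Tfrc and Slc40a1 had a 95% interval that left out 0 in edgeR over all libraries. Fth1 lay between -0.18 and about 0, and Steap3 turned negative once, at -0.08 without control 1.

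**Figure D5:**
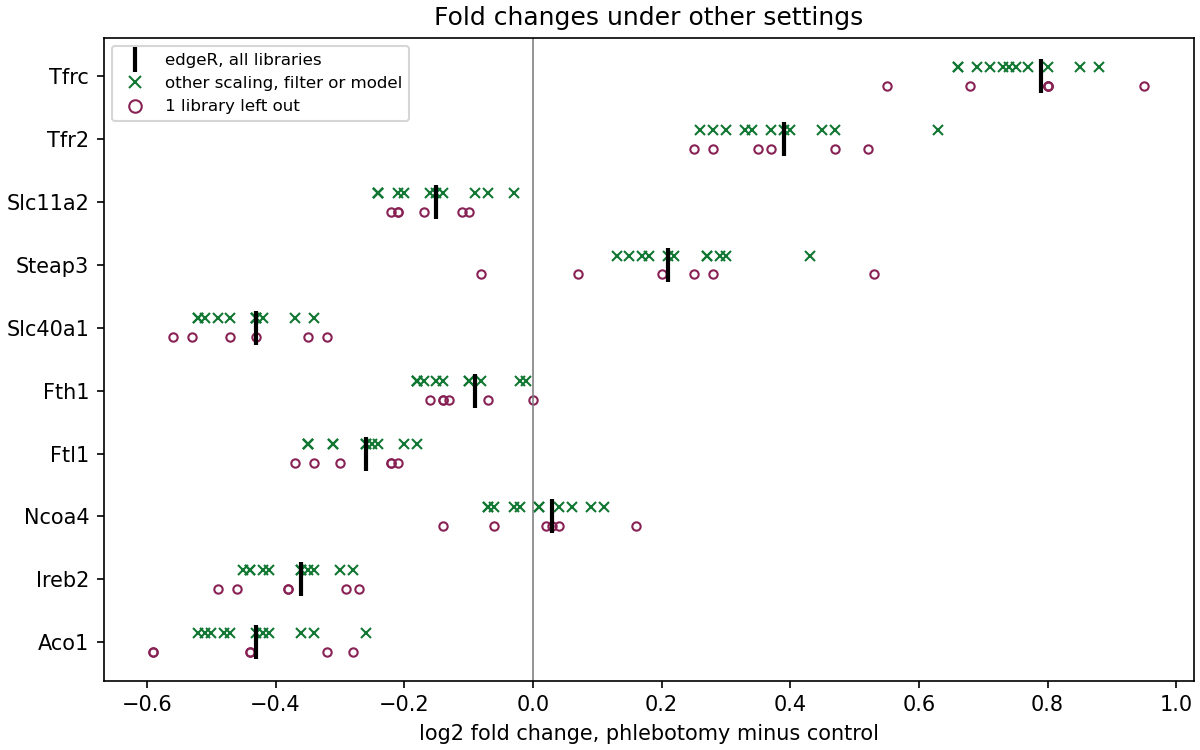
Log2 fold change (x axis, phlebotomy minus control) of each iron gene in edgeR over all libraries (bar), under other scaling, filters or models (crosses) and with 1 library left out (open circles). Tfrc stays between 0.55 and 0.95, while Ncoa4 lies on both sides of 0.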

How the data were processed

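RNA-seq libraries from total RNA of osteocyte-enriched femur were made with Nextera XT, which does not mark strand, and sequenced in paired-end mode, per the labels' protocols. GRCm38.p3 and mm10 are the builds, and DESeq2, limma, edgeR and STAR (2.5.2a and 2.7.3a) the tools, listed with no role in the submitters' processing notes; the counting program is not given in the sources used here. Unnormalized counts per gene were deposited by the authors, in full and filtered, together with a scaled signal table that the file name calls CPM with TMM, each column being the filtered counts times a constant. Between 0.00278% and 0.0284% of a library's counts lay in rows naming no mouse gene, which were left out throughout.

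Genes were filtered with filterByExpr (minimum count 10), scaled with TMM and tested over all genes in edgeR 4.0.16 (R 4.3.3) by its quasi-likelihood F-test, with Benjamini-Hochberg adjustment at 0.05. SE and 95% intervals came from the F statistic. Tested on simulated data with these library sizes (18661 genes), the test recovered 43.8% of genes changed 2-fold and 87.5% of those changed 4-fold. It made 135 calls there, 9 of them false, where the real libraries gave 3. Simulated counts were drawn independently for each gene, with no library set apart, so recovery in the real libraries may be lower. A level of 3 counts corresponds to 0.164 to 0.296 CPM. No pair of libraries agreed within sampling noise. Gene lengths (longest principal transcript), coordinates and hairpin sites came from GENCODE M21 on GRCm38.

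Alternatives were upper quartile and RLE scaling, other filters, protein-coding genes only, DESeq2 1.42.0, limma-voom and limma-trend (limma 3.58.1; pseudocounts 0.5 and 1), a replicate block, removal of length and GC trends, and leaving out each library. Members, lists and the naming rule (all 10 members, and up to 3 genes per wider list by smallest p plus any called) were chosen with earlier results of these data known. The hairpin search with an unpaired base, the sums with ferritin copies and the overlap count on deposited values were added after seeing the data. Some genes that the naming rule selects are not reported here.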

Additional observations from a re-analysis of the deposited data

Results flagged for a closer look

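Rows of the count table that name transgene or vector sequences were outside the comparisons, and 5 of them stood out in phlebotomy 2, with more than 3 counts and more than 3 times the highest share of counts in a control. These were Neo with 2288 counts (at most 12 in a control), EGFP with 920 (at most 6), DsRed with 403, Venus with 75 and mLamp3 with 24 (0 in all controls for the last 3). Phlebotomy 1 and 4 held at most 7 counts in any of these rows. The library is labelled WT like the others. Among the iron genes, Tfrc was at its lowest phlebotomy value in this library and Tfr2, Steap3 and Ftl1 at their highest. What these sequences have to do with those values was not tested.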

How the results depend on the processing

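No iron gene of the 10 was called in 9 of the 11 alternatives of scaling, filter, model or block. With no filter on low counts and in DESeq2, 1 was called, Tfrc. The count over libraries left out was 0 to 1. The count over all genes, 3, was 577 with no filter, 20 over the genes of the authors' filtered table, 353 in DESeq2, 0 in limma-voom (3020 at an unadjusted p under 0.05) and 1 among protein-coding genes alone. With a library left out it was 0 to 963, the 0 without phlebotomy 1 (1529 at an unadjusted p under 0.05) and the 963 without phlebotomy 2. The count of wider iron genes, 1, was 4 with no filter, 2 in DESeq2 and 0 in limma-voom, and 0 to 6 with a library left out (0 without phlebotomy 1, 6 without phlebotomy 2). The Aco1 to Ireb2 difference, -0.07, was 0.09 with length and GC trends removed and ran from -0.23 to 0.06 with a library left out. Ncoa4, at 0.03, was -0.03 with no filter, -0.06 over the authors' filtered genes, -0.02 in DESeq2, -0.07 in limma-trend at either pseudocount, -0.06 without control 1 and -0.14 without phlebotomy 4. With a library left out, Steap3 ran from -0.08 to 0.53 and Ncoa4 from -0.14 to 0.16. The causes were not tested.

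The correlation of deviations between same-numbered libraries was -0.11, -0.108 and -0.0616, and between the others it ran from -0.024 to 0.106. These values give no sign of pairing by column number, but with 3 libraries per group they cannot exclude it. With the replicate block 0 iron genes, 3 of all genes and 1 wider iron gene were called, and Tfrc differed by 0.75 on the log2 scale (adjusted p 0.313 in edgeR). The ratio differences, 0.17 (Fth1 to Ftl1), 1.18 (Tfrc to Slc40a1), -0.07 (Aco1 to Ireb2) and 0.84 (Tfrc to Fth1), cannot change with the block. Each block holds 1 library of each group. The exact permutation p was 0.1 without and 0.25 with the block for Tfrc to Slc40a1 and for Tfrc to Fth1. Both values are the smallest that the respective design allows, so this rise says nothing about pairing. For Fth1 to Ftl1 the exact permutation p rose from 0.4 to 0.75.

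Allowing 1 unpaired base raised the genes with a hairpin match from 4 to 5, and dropping the bulged C left 4. Depth limits Steap3 and Tfr2 most.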

Other observations

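Genes whose levels ran most like an iron gene over the 6 libraries were listed among 8733 named protein-coding genes with a mean of at least 10 CPM. The points share library and depth, and with 6 libraries high correlations arise among so many genes, so these are descriptions. Tfrc ran closest with Rad51ap1, a DNA repair factor (Pearson's r 0.992; 13.0 to 15.4 CPM in controls and 17.5 to 27.0 CPM after phlebotomy), then with Ndufs1, Dnajb11, Ostm1 and Usp45 (r 0.983 to 0.988). Slc40a1 ran closest with Comp, a cartilage matrix protein (r 0.983), then with Adcy3, Ap3d1, Os9 and Hp1bp3 (r 0.968 to 0.977). Fth1 ran closest with Higd2a, a mitochondrial protein (r 0.992), then with Erlec1, Dtnbp1, Ube2j2 and Gar1 (r 0.971 to 0.984).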
